A study of Mus musculus with 8 samples.

Results

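The urea cycle is described here through the open chromatin at its 7 genes, Cps1, Otc, Ass1, Asl, Arg1, Nags and Slc25a15, in fasted mouse liver. The assay was ATAC-seq: a transposase cuts and tags DNA that nucleosomes leave free. A region belonged to a gene when that gene was the nearest protein-coding gene to it, within 100 kb of the gene's span. This gave 51 of the 49587 consensus regions of the study: 18 for Cps1, 9 for Ass1, 8 for Arg1, 5 each for Nags and Slc25a15, 4 for Asl and 2 for Otc. None of the 51 was equally near to another gene. They were 200 to 845 bp wide.

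All livers came from 9-week-old male C57BL/6 mice after a 24-hour fast. The 4 genotypes, with 2 libraries each, were wild type, a knockout of Cpt2 limited to the liver (Cpt2 L-/-), a knockout of Ppara (Ppara -/-), and a double knockout that joined the liver deletion of Cpt2 with a whole-body deletion of Ppara (Cpt2 L-/- ; Ppara -/-). Cpt2 is the mitochondrial carnitine palmitoyltransferase that long-chain fatty acid oxidation needs, and Ppara is the fatty acid-sensing nuclear receptor of the fasting response. The driver of the Cpt2 deletion, the deleted exons and the number of animals behind a library are not given in the sources used here, so the spread between libraries of a genotype may be technical. Wild type and Cpt2 knockout are called Ppara-intact, and Ppara knockout and double knockout Ppara-null.

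The urea cycle turns ammonia, a product of amino acid breakdown, into urea. It runs in hepatocytes and is split between compartments. In mitochondria Nags makes N-acetylglutamate, the obligate activator of Cps1, which forms carbamoyl phosphate from ammonia and bicarbonate, and Otc joins carbamoyl phosphate to ornithine. The carrier Slc25a15 moves ornithine in and citrulline out. In the cytosol Ass1 joins citrulline to aspartate, Asl splits the product into arginine and fumarate, and Arg1 releases urea and ornithine. During fasting, amino acids released from muscle feed both gluconeogenesis and this cycle.

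Start sequences are shown for 3 genes, to set a start called in 5 libraries beside 2 called in every library. The start regions of Ass1 and Nags were called in all 8 libraries, and that of Otc in the 4 Ppara-intact libraries and Ppara knockout 2. Each run goes 5′ to 3′ from 250 bases before the start to 29 after it (RefSeq, GRCm38.p6, plus strand). The start is that of the RefSeq window, which for Otc is 10252305, inside the gene's span. The capitals mark the stretch between the lowest and highest peak summit of the libraries that called the region, as far as it falls in the run.
Otc, chrX:10252055-10252334: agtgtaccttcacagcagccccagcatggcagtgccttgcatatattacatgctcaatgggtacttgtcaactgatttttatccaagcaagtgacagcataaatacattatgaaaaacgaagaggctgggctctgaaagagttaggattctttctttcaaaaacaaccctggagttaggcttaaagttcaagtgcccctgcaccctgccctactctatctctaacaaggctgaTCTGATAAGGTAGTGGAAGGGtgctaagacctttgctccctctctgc
Ass1, chr2:31470020-31470299: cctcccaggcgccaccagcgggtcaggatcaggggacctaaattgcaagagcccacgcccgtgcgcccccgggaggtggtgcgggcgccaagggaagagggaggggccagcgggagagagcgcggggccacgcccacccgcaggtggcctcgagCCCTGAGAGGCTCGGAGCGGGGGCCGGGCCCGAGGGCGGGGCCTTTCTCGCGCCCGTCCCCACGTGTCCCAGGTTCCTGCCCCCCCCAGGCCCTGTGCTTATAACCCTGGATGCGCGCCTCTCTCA
Nags, chr11:102145263-102145542: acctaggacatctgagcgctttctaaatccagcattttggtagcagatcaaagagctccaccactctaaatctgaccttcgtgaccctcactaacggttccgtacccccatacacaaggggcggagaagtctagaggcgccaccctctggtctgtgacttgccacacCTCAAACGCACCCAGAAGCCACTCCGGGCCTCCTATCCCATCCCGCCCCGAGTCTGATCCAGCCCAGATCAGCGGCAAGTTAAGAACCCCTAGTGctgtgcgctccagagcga
The 5 Otc summits lay between 17 bp before and 3 bp after the window's start. The 8 Nags summits ran from 83 bp before to 11 bp after it, and the 8 Ass1 summits from 96 bp before to 63 bp after it. Over the 300-base windows supplied, GC content was 44.3% at Otc with 1 CpG, 57.7% at Nags with 14 CpGs and 74% at Ass1 with 27 CpGs, against a median GC content of 52.7% over 32851 windows. For Slc25a15, whose start region was called in the same 5 libraries as that of Otc, there were 2 windows. Of its 5 summits 4 fell in the window at 22398228 to 22398527, which was 79% GC with 51 CpGs. Cps1, Asl and Arg1 had no window.

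Motifs were searched on both strands of these 5 windows. The PPAR element, a pair of AGGTCA with any base N between them, was in none of the 5 and in 0.0396% of all windows. The cAMP response element TGACGTCA was in none of the 5 and in 1.79% of all windows. Its core TGACG, which the full element contains, was in the Nags window, on the minus strand 31 to 35 bp after the gene start, and in 20.8% of all windows. Neither the C/EBP motif TTGCNNCAA (2.08% of windows), the HNF4 motif CAAAGTCCA (0.475%), the glucocorticoid core AGAACA (19%), its full element of AGAACA, NNN and TGTTCT (0.00913%), which contains that core, nor TATAAA (13.6%) was in any of the 5.

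The lists behind these calls differ in length. Ppara-intact libraries held 28733 to 39296 peaks and Ppara-null libraries 18132 to 22715. Comparisons were therefore repeated in equal-number lists, which keep the strongest 18132 peaks of each library by −log10 p. The deposited fold and −log10 p of a peak are the authors' values. Together they fix the number of tags piled up at its summit and the local background that MACS2 expected there. This could be solved for all 200 library-by-region calls at the 7 genes, and no library had a background under 4.097 tags, the same floor in all 8, so summit pileups are given side by side. Over the regions called in all 8 libraries, the median Ppara-null to Ppara-intact ratio of pileup was 0.477, and each ratio below is read against it. A lower pileup in whole tissue does not tell fewer open cells from less opening per cell. Peak names carry a number that was 441, 443, 446 or 4717 for Ppara-intact and 6831 to 6834 for Ppara-null libraries. What it counts is not given, and if it marks runs they cannot be told apart from Ppara status.

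All 6 hepatocyte marker genes (Alb, Apoa1, Ttr, Serpina1a, Cyp2e1 and Hnf4a) had a peak within 1 kb of their span in all 8 libraries. None of the 5 Kupffer cell markers (Clec4f, Cd5l, Vsig4, Adgre1 and Timd4) had one in any. Of 5 endothelial markers, 3 to 5 had a peak in Ppara-intact and 2 in Ppara-null libraries. The ranges were 1 to 2 and 0 to 1 of 5 stellate markers, 2 and 0 to 1 of 5 cholangiocyte markers, and 1 and 0 to 1 of 4 lymphocyte markers. Des, Colec11, Krt19, Krt7, Spp1, Ptprc, Cd3e and Nkg7 had none in any library. The part of other cell types in the results was not tested.

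Of the 51 regions, 8 were called in all 8 libraries (15.7%, against 22.7% of all consensus regions). These 8 belonged to 6 genes, with 2 each at Ass1 and Arg1, 1 each at Cps1, Asl, Nags and Slc25a15, and none at Otc. A further 3 regions had a peak in every Ppara-intact library but in no Ppara-null one (5.88%, against 6.82% of all regions). The reverse held for 1 region (1.96%, against 0.0686% of all regions). A single library called 19 of the 51, and in 14 cases that library was Ppara-null (27.5%, against 4.52% of all regions). Double knockout 2 supplied 7 of these 14. In the other 5 cases the library was Ppara-intact (9.8%, against 18.5% of all regions). Ppara-intact libraries called 24 to 32 of the 51 regions, or 47.1% to 62.7%, where they called 56.9% to 77.7% of all regions. Ppara-null libraries called 21 to 22, or 41.2% to 43.1%, against 35.5% to 44.5% of all regions. In equal-number lists Ppara-intact libraries held 16 to 18 of the 51, or 31.4% to 35.3%, against 36.3% to 36.4% of all regions. Ppara-null lists held 16 to 22, or 31.4% to 43.1%, against 35.3% to 36% of all regions. The member ranges of the sides overlap. There 0 regions separated towards Ppara-intact (0.811% of all regions), 6 were in all 8 lists (18.3%), and single-list regions numbered 0 for Ppara-intact (3.96%) and 12 for Ppara-null (8.74%).

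**Figure D1:**
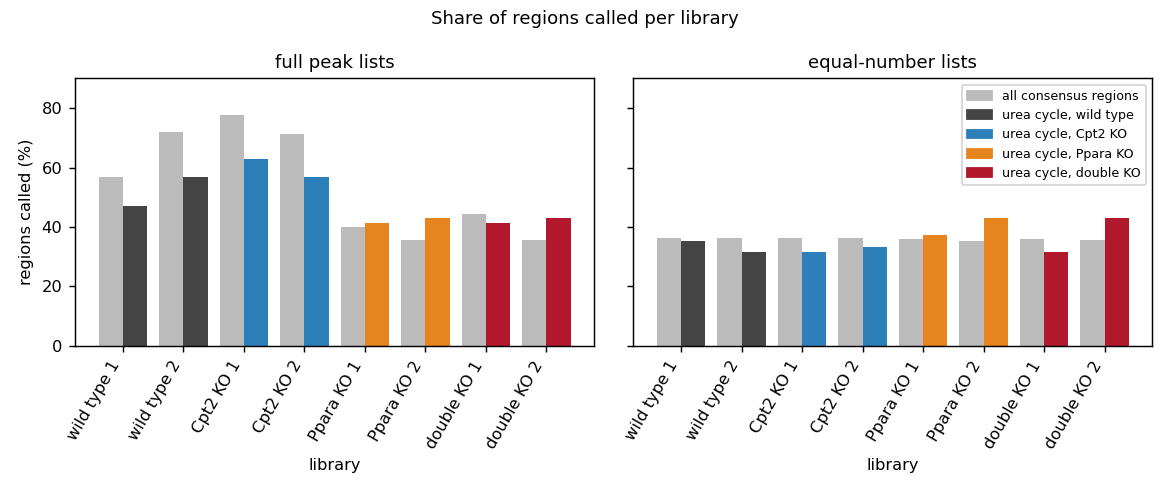
Percentage of regions called in each library, for the 51 urea cycle gene regions (coloured bars) and all 49587 consensus regions (grey bars), in full peak lists (left) and in the strongest 18132 peaks of each library (right). In full lists the coloured bar stands below the grey one in the 4 Ppara-intact libraries and in double knockout 1 (41.2% against 44.5%). In equal-number lists it stands above the grey one in Ppara knockout 1 and 2 and double knockout 2.

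**Figure D2:**
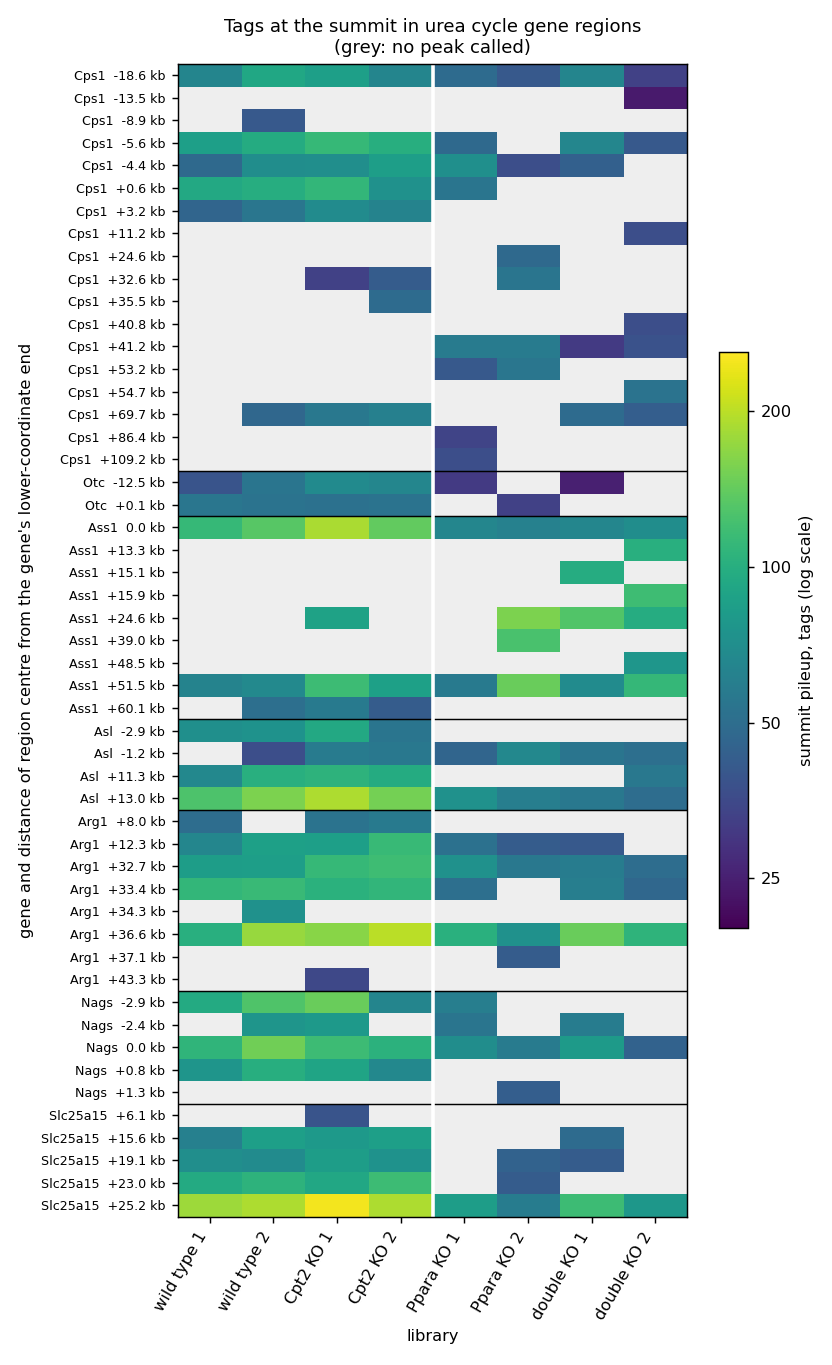
Tags at the peak summit (colour, log scale) for each of the 51 regions (rows, by gene and by distance in kb from the gene's lower-coordinate end) and each library (columns). Grey means that no peak was called. The rows inside Cps1 and Ass1 hold scattered calls of both Ppara-intact and Ppara-null libraries. Of the 23 regions inside a gene and over 1 kb from its ends, each Ppara-intact library called 5 to 9. Each Ppara-null library called 3 to 10 of them, and the mean was 6.75 on both sides. Over all consensus regions, wherever they lie, a Ppara-intact library called 69.4% on average and a Ppara-null one 38.9%. With equal-number lists the mean count out of these 23 was 1.5 for the Ppara-intact side and 5.75 for the other. Ppara-intact lists held at most 2 of them, and Ppara-null lists at least 2 and at most 10. Over all regions the mean equal-number shares were 36.4% and 35.6%.

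Nags, the source of the activator of Cps1, kept its start region (chromosome 11, 102145236 to 102145758, overlapping the gene start) in every library. The summit pileup there was 107 and 149 tags in wild type, 116 and 104 in Cpt2 knockout, 70 and 58 in Ppara knockout and 81 and 45 in double knockout. All Ppara-null values lay below all Ppara-intact ones, with a mean of 63.5 against 119 tags and a ratio of 0.534. Of the 11089 regions called in all 8 libraries whose pileups could be solved, 79.1% separated in this direction. The exact two-sided permutation test gave p = 0.0286, the smallest that 4 against 4 libraries allow, and 0.036 after Benjamini-Hochberg adjustment over all 11089. An adjusted p under 0.05 was reached by 8800 of these regions, so it does not set this region apart. Its ratio was above that of 67.3% of all regions called in 8 libraries. By rank in the equal-number lists the same region did not separate, with Ppara-intact percentiles of 15 to 50.1 and Ppara-null ones of 16.3 to 60.5 (exact permutation p = 0.257).

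A second Nags region, 620 bp inside the gene start (chromosome 11, 102146133 to 102146510), had a peak in each Ppara-intact library but in no Ppara-null one. Its pileups were 76 and 100 tags in wild type and 89 and 66 in Cpt2 knockout. It was among the weaker peaks of these lists, at percentiles of 12 to 46 by −log10 p, and no equal-number list held it. The region 2735 bp before Nags (chromosome 11, 102142360 to 102142778) was called in the same 4 libraries and in Ppara knockout 1, with 96, 128, 144 and 64 tags against 60. Of the other 2 Nags regions, that at 102143022 to 102143296 was called by 2 libraries of each Ppara status, and that at 102146706 to 102146929 by Ppara knockout 2 alone.

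Cps1, which encodes the enzyme that commits ammonia to the cycle, spans chromosome 1 from 67122426 to 67231267. The region just inside its lower-coordinate end (67122733 to 67123224) held 94 and 99 tags in wild type, 109 and 73 in Cpt2 knockout and 54 in Ppara knockout 1. Ppara knockout 2 and both double knockout libraries had no peak there. In equal-number lists it again had all 4 Ppara-intact libraries and Ppara knockout 1. The next region inside the gene (67125475 to 67125783) again had Ppara-intact peaks alone, with 46, 55, 69 and 63 tags, and in no equal-number list.

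Of the 5 regions before Cps1, 3 had peaks on both sides, and the other 2 had a single library each, double knockout 2 at 67108789 and wild type 2 at 67113412. The region 18150 bp outside the span (67103435 to 67104276) was called in all 8 libraries, with 64 and 92 tags in wild type, 85 and 64 in Cpt2 knockout, 49 and 41 in Ppara knockout and 64 and 33 in double knockout. The sides met at 64 tags. The ratio of means was 0.613, above that of 82.7% of all regions called in 8 libraries (exact permutation p = 0.0857). The region 5371 bp outside (67116513 to 67117055) was missing in Ppara knockout 2 and held 41 to 65 tags in the other Ppara-null libraries, where Ppara-intact ones held 85 to 112. At 4271 bp outside (67117827 to 67118155) the ranges overlapped, with 48 to 84 tags in Ppara-intact libraries and 72, 37 and 44 in the 3 Ppara-null libraries that called it. In Ppara knockout 1 this was a strong peak, at percentile 85.8 of its list.

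Further inside Cps1 both sides had scattered peaks, 1 to 4 in each Ppara-intact and 2 to 5 in each Ppara-null library. Of 11 regions inside the gene and over 1 kb from its ends, 7 were called in at least 1 Ppara-null library and in no Ppara-intact one. The region at 67163432 to 67163734, 41006 bp inside the gene, had a peak in every Ppara-null library and in none of the Ppara-intact ones, and it is 1 of 34 such regions among the 49587. Its pileups were 58 and 58 tags in Ppara knockout and 31 and 38 in double knockout, with deposited folds of 4.69, 3.59, 4.1 and 3.71. These were modest peaks, at percentiles of 53.5, 36.8, 7.2 and 9.2. In equal-number lists 3 of the 4 Ppara-null libraries held it, without double knockout 1. The region at 67175506 to 67175714 was called in both Ppara knockout libraries alone, with 41 and 55 tags, and the remaining 5 of the 7 had a single library each. Of the other 4 inside regions, that at 67191982 to 67192330 was called in 3 Ppara-intact and 2 Ppara-null libraries, and that at 67157822 to 67158086 in Cpt2 knockout 2 alone.

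Otc, which makes citrulline in mitochondria, had both of its regions in all 4 Ppara-intact libraries. At its start (chromosome X, 10252135 to 10252490) the pileups were 55 and 53 tags in wild type and 52 and 53 in Cpt2 knockout. Ppara knockout 2 held 33 tags, and the other 3 Ppara-null libraries had no peak. In each of these 5 libraries the local background was the lowest that occurs, 4.1 tags. The region 12265 bp outside Otc (10239441 to 10239965) held 39, 54, 68 and 65 tags in Ppara-intact libraries, 31 in Ppara knockout 1 and 25 in double knockout 1. Both double knockout libraries lacked the start region, and both Cpt2 knockout libraries had it.

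Slc25a15, the ornithine and citrulline carrier, lies on chromosome 8 from 22375550 to 22398621. The region at its start (22398172 to 22398860) held 96 and 105 tags in wild type, 93 and 116 in Cpt2 knockout and 42 in Ppara knockout 2, and no peak was called in the other 3 Ppara-null libraries. This is the pattern of the Otc start, in the same 5 libraries. The region 1870 bp before the start (22400491 to 22400933) reached the highest pileup of the 51 regions, in Cpt2 knockout 1. Its pileups were 179 and 190 tags in wild type, 249 and 190 in Cpt2 knockout, 83 and 59 in Ppara knockout and 116 and 78 in double knockout. The sides did not overlap. The ratio of means was 0.416, above that of 26.2% of all regions called in 8 libraries (exact permutation p = 0.0286, adjusted p = 0.036). By rank in equal-number lists it stayed high on both sides, at percentiles of 85.1 to 94.3 and 68.1 to 93, which overlap. Inside the gene, peaks at 22390827 to 22391433 came from the 4 Ppara-intact libraries and double knockout 1. Ppara knockout 2 joined these 5 at 22394470 to 22394907, and Cpt2 knockout 1 stood alone at 22381524 to 22381741.

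**Figure D3:**
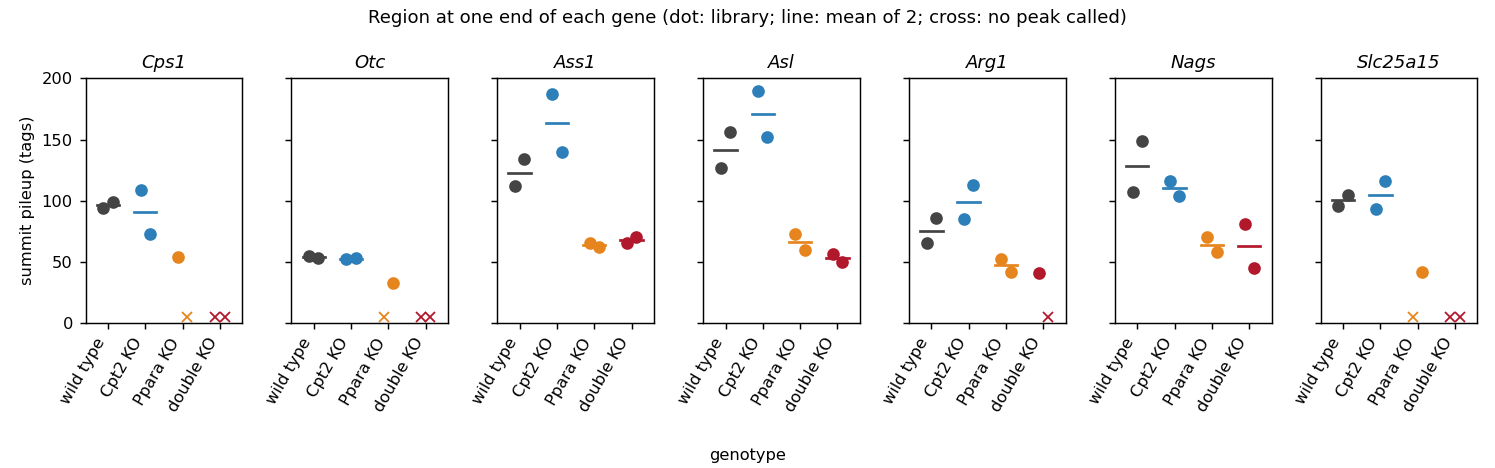
Summit pileup in tags at the region on an end of each gene, by genotype, with a dot for each library, a line for the mean where both libraries had a peak and a cross where none was called. At these 7 regions the Ppara-intact values lie above the Ppara-null ones. At the regions by the opposite ends of Ass1 (31521385) and Asl (130009665), which are not plotted, they overlap, and that of Cps1 (67231550) had a peak in Ppara knockout 1 alone. Cps1, Otc and Slc25a15 each have a peak in a single Ppara-null library.

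Ass1, which brings the second nitrogen into the cycle as aspartate, lies on chromosome 2 from 31470270 to 31520670. Its start region (31469896 to 31470554) held 112 and 134 tags in wild type, 187 and 140 in Cpt2 knockout, 65 and 62 in Ppara knockout and 65 and 70 in double knockout. The 4 Ppara-null values lay within 8 tags of each other and all below the Ppara-intact ones. The ratio of means was 0.457, above that of 42.3% of all regions called in 8 libraries (exact permutation p = 0.0286, adjusted p = 0.036). By rank in equal-number lists the sides overlapped, at percentiles of 36.6 to 68.6 and 8.23 to 50.9.

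At the other end of Ass1 the sides overlapped. The region 715 bp beyond the higher-coordinate end (31521385 to 31522217) held 63 and 67 tags in wild type, 116 and 86 in Cpt2 knockout, 57 and 145 in Ppara knockout and 69 and 110 in double knockout. The ratio of means was 1.15, above that of 97.7% of all regions called in 8 libraries, with no separation (exact permutation p = 0.686). Ppara knockout 2 and double knockout 2 held the high Ppara-null values, 145 and 110 tags. Of the equal-number lists, all 4 Ppara-null ones and 1 Ppara-intact one held this region. The local background there was 35 and 27.8 tags in these 2 libraries, 13.6 and 18 in the other Ppara-null ones and 11.1 to 22.8 in the Ppara-intact ones.

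Inside Ass1, 5 of 6 regions were called in a single Ppara-null library and no other. Double knockout 2 called those at 31483450 to 31483659, 31486071 to 31486292 and 31518643 to 31518894, double knockout 1 called that at 31485172 to 31485470, and Ppara knockout 2 called that at 31509139 to 31509368. The sixth, at 31494694 to 31495124, was called in Ppara knockout 2, both double knockouts and Cpt2 knockout 1, with 156, 130, 98 and 88 tags. The pileups were high and the folds low: the peaks inside the gene held 77 to 156 tags in the Ppara-null libraries, more than the 62 to 70 at the gene start, over a local background of 32.1 to 58.2 tags. At the gene start the local background was 15.5 to 19.5 tags in these libraries. The mean background inside the gene was 3.53 times that at the start in Ppara knockout 2, 2.08 times in double knockout 1 and 2.23 times in double knockout 2, against 1.26 times in Cpt2 knockout 1. The start values under these ratios were 15.7, 19.5, 17.4 and 25.4 tags in the same order, and the inside positions differ. At the region all of them called (31494694), the background was 52.2, 37.5, 33.4 and 32 tags, so Cpt2 knockout 1 was close to double knockout 2. A background is known only where a peak was called, and wild type, Cpt2 knockout 2 and Ppara knockout 1 had none inside Ass1.

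Inside Cps1 every library had a peak. The mean background behind these peaks was 8.12 and 9.29 tags in wild type, 9.35 and 13.5 in Cpt2 knockout, 9.87 and 15.9 in Ppara knockout and 8.44 and 9.86 in double knockout. The sides overlapped, and Ppara knockout 2 had the highest value. These means rest on 1 to 5 peaks per library, at positions that differ between libraries. They are not set against the region 18150 bp outside the gene, since the background there was at or near the floor in all but 1 of the Ppara-null libraries.

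**Figure D4:**
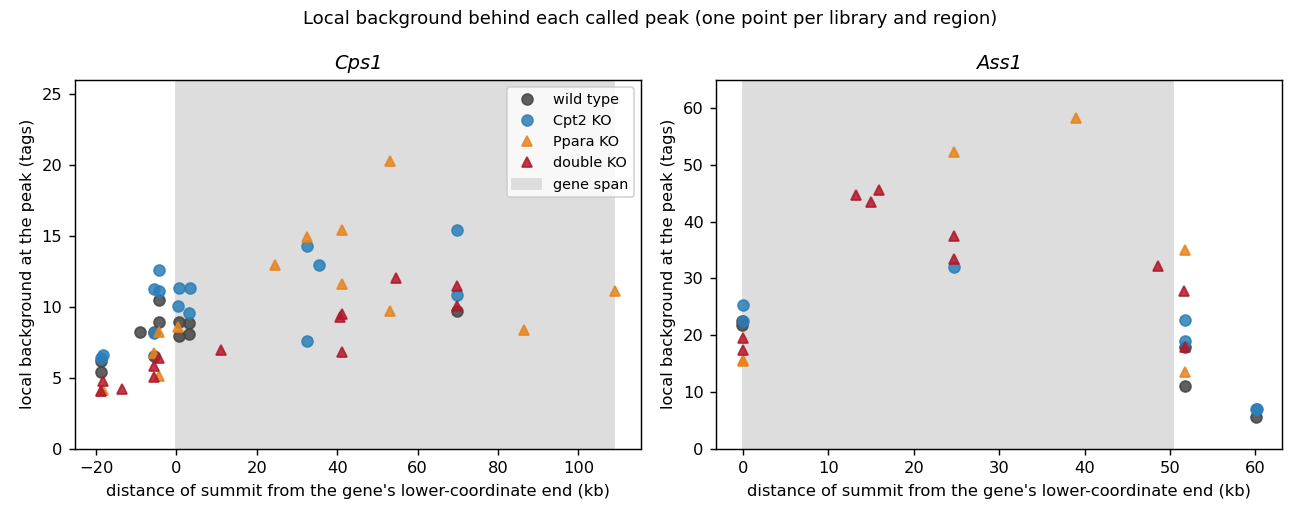
Local background in tags behind each called peak at Cps1 (left) and Ass1 (right), by distance of the summit from the gene's lower-coordinate end in kb. Circles are Ppara-intact and triangles Ppara-null libraries, and grey marks the gene span. Inside Ass1 the Ppara-null points lie at 32.1 to 58.2 tags, above the 15.5 to 19.5 at its start. The only Ppara-intact point there, from Cpt2 knockout 1, lies at 32 tags, also above the 21.8 to 25.4 of Ppara-intact libraries at the start.

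The calls inside these 2 genes were set against all genes. Among the 20810 regions inside a gene and over 1 kb from its ends, 5.51% were called in at least 1 Ppara-null and no Ppara-intact library. For the urea cycle genes this held for 13 of 23 such regions, 7 in Cps1, 5 in Ass1 and 1 in Nags. Of the 996 genes with any such region, Cps1 had the most, and Ass1 was level with Mctp1 in the next place. The spans were 109 kb for Cps1, 50.4 kb for Ass1 and 651 kb for Mctp1. In equal-number lists Cps1 again had the most, with 8 regions, and Ass1 with 5 was in place 10, level with 8 other genes. Double knockout 2 contributed most: without it Cps1 had 4 such regions, level with 5 other genes at the top, and Ass1 had 2. At a −log10 q of at least 20, Cps1 had 0 such regions and Ass1 had 1. All regions counted, 16 of the 51 were called in at least 1 Ppara-null and no Ppara-intact library (5.43% of all consensus regions), and 9 without double knockout 2. The opposite, at least 1 Ppara-intact and no Ppara-null library, held for 10 of the 51 (42.3% of all consensus regions). This comparison was chosen after the values were seen.

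Asl, the argininosuccinate lyase, lies on chromosome 5 from 130011258 to 130024381. The region over its higher-coordinate end (130023818 to 130024637) held 127 and 156 tags in wild type, 190 and 152 in Cpt2 knockout, 73 and 60 in Ppara knockout and 56 and 50 in double knockout. Among the 8 regions called in every library its ratio of means was the lowest, 0.382, and 14.8% of all regions had a lower one (exact permutation p = 0.0286, adjusted p = 0.036). By rank in equal-number lists the sides overlapped narrowly, with Ppara-intact percentiles of 60.6 to 73 and Ppara-null ones of 21 to 62.4 (exact permutation p = 0.0571, adjusted p = 0.323). The region 2740 bp beyond the other end (130008206 to 130008518) had Ppara-intact peaks alone, with 72, 74, 94 and 54 tags. In equal-number lists 2 of the 4 held it.

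A further Asl region, 749 bp from the lower-coordinate end (130009665 to 130010509), was the only one of the 51 to separate Ppara status completely in equal-number lists. There each Ppara-null list held it and the Ppara-intact lists did not (1 of 51 regions, against 0.512% of all). In full lists it was called in every library but wild type 1. Its pileups were 37 tags in wild type 2, 58 and 56 in Cpt2 knockout, 46 and 66 in Ppara knockout and 54 and 51 in double knockout, which overlap. Inside the gene, the peaks at 130022388 to 130022766 held 66 to 105 tags in the 4 Ppara-intact libraries and 56 in double knockout 2.

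Arg1, the hydrolase that releases urea, lies on chromosome 10 from 24915207 to 24927470. The region over its higher-coordinate end (24927215 to 24927772) held 65 and 86 tags in wild type, 85 and 113 in Cpt2 knockout, 52 and 42 in Ppara knockout and 41 in double knockout 1, and double knockout 2 had no peak. A group of regions lay 20290 to 30855 bp beyond this end. The strongest of them (24951552 to 24952109) was called in all 8 libraries, with 101 and 175 tags in wild type, 165 and 199 in Cpt2 knockout, 102 and 73 in Ppara knockout and 144 and 106 in double knockout. The sides overlapped, and the ratio of means was 0.664, above that of 88.2% of all regions (exact permutation p = 0.114). By rank it stood higher in the Ppara-null lists, at percentiles of 82.2 to 97.1 against 59.7 to 91.9, again with overlap (exact permutation p = 0.0571, adjusted p = 0.323).

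The neighbour at 24947760 to 24948149 was also called in every library. It held 83, 84, 111 and 117 tags in Ppara-intact and 73, 56, 59 and 50 in Ppara-null libraries, which do not overlap. The ratio was 0.603, above that of 81.2% of all regions called in 8 libraries (exact permutation p = 0.0286, adjusted p = 0.036). The region at 24948388 to 24948751 was called in all but Ppara knockout 2, with 103 to 114 tags in Ppara-intact and 47 to 60 in the other libraries. The region inside Arg1 at 24923040 to 24923322 was called in wild type 1 and both Cpt2 knockouts, with 50, 53 and 57 tags. The other 3 Arg1 regions had a single library each.

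Across the 8 regions called in every library, 5 had lower pileups in all Ppara-null than in all Ppara-intact libraries and none the reverse (0.28% of all regions). The 5 make 62.5%, against the 79.1% of all regions given above. Local background was lower without overlap at 7 of the 8 (70.2% of all regions) and higher at none (0.343%), with Ass1 at 31521385 the exception. The median ratio of the 8 was 0.568, against 0.477 over all. Of the 6 that all equal-number lists held, none separated by rank in either direction, against 5.96% of 9073 regions that stood lower and 5.07% that stood higher in the Ppara-null libraries. By the exact permutation test no region of the 9073 passed an adjusted p of 0.05, and 1001 had an unadjusted p under 0.05, none of them a urea cycle region.

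Pairs of genotypes were compared by calls in both libraries of one and neither of the other. In Ppara knockout against wild type, 5 of the 51 regions were called in both wild type and no knockout libraries (13.6% of all regions) and 2 the reverse (0.46%). For the double knockout, 7 regions were wild type alone (12.9%) and 2 double knockout alone (1.2%). Set against Cpt2 knockout the double knockout gave 10 (20.4%) and 1 (0.597%). The first 2 comparisons share the wild type libraries, and no test was run on pairs of genotypes, since an exact permutation test of 2 against 2 libraries cannot go below p = 0.333. As full-list shares of the 51, the Ppara-intact counts were 9.8%, 13.7% and 19.6%, against the 13.6%, 12.9% and 20.4% of all regions. The Ppara-null counts were 3.92%, 3.92% and 1.96%, against 0.46%, 1.2% and 0.597%, and rest on 1 or 2 regions each. In equal-number lists the first comparison gave 1 (3.44%) and 5 (2.38%). The second gave 6 (3.35%) and 4 (3.08%), and the third 4 (2.99%) and 3 (2.61%). The 2 full-list regions of Ppara knockout were those in Cps1 at 67163432 and 67175506. The 2 of double knockout were those in Cps1 at 67163432 and in Ass1 at 31494694, the latter also called in Cpt2 knockout 1.

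Few regions separated by Cpt2 status. No region of the 51 was called in all 4 libraries with Cpt2 deleted and none with it intact (0.0968% of all regions), nor the reverse (0.00605%), and equal-number lists gave 0 both ways too (0.0403% and 0.0544%). In Cpt2 knockout against wild type 1 region was called in both knockouts and no wild type library (3.63%) and 0 the reverse (0.512%). It lay in Cps1 at 67154749 to 67155205, with 33 and 42 tags, and was also called in Ppara knockout 2. In double knockout against Ppara knockout 1 region each was called in double knockout alone (2.33%) and in Ppara knockout alone (1.45%). In equal-number lists Cpt2 knockout against wild type gave 0 and 0 (0.918% and 0.815%), and double knockout against Ppara knockout 1 (2.03%) and 2 (1.84%). Of the 8 regions called in every library, none separated by pileup between Cpt2-null and Cpt2-intact libraries, where 0.577% of all regions stood higher and 0% lower. Nor did any separate by local background (0.667% higher, 0.0361% lower) or, of the 6, by rank (1.41% higher, 1.97% lower). By the exact permutation test on ranks no region of the 9073 passed an adjusted p of 0.05, and 307 had an unadjusted p under 0.05. The ratios of means ran from 0.901 at the Nags start to 1.36 at the Arg1 region at 24951552, with exact permutation p from 0.229 to 1. These ranges do not show that Cpt2 loss has no effect.

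Genes that supply the cycle with nitrogen or use its intermediates were taken as a related list of 25, of which 23 had 151 regions. Slc25a2 and Arg2 had none. The list holds transaminases, glutamine enzymes, amino acid carriers and amino acid-degrading enzymes. Of the 151, 45 were called in all 8 libraries (29.8%), 7 in each Ppara-intact library and none of the others (4.64%) and 0 the other way, against the 22.7%, 6.82% and 0.0686% of all regions. In equal-number lists 0 regions separated towards Ppara-intact (0.811% of all regions there) and 2 towards Ppara-null (1.32% of the 151, against 0.512% of all regions). Both of these stood in all 4 Ppara-null lists and were called in all 8 full lists. The region over an end of Tat (tyrosine aminotransferase, chromosome 8, 109998214 to 109999404) held 116, 83, 134 and 167 tags in Ppara-intact and 161, 179, 171 and 196 in Ppara-null libraries, which overlap. The region inside Slc7a2 (a carrier of arginine and other cationic amino acids, chromosome 8, 40887694 to 40888060) held 62, 82, 76 and 95 against 80, 106, 123 and 80 tags, which overlap too.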

How the data were processed

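Per the submitters' processing notes, BWA and MACS2 2.1.0 were used on mm10. The authors deposited a peak list per library with a score, the fold over local background (a ratio), −log10 p and −log10 q, per the narrowPeak format, and a table of consensus positions with no signal. How duplicates and the Tn5 offset were handled is not given in the sources used here, and no read totals are given, so the depth is unknown beyond the equal lowest background. The score was not used.

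The first track gave the consensus regions. A call needed 1 bp of a library's peak inside the region, and the strongest peak by −log10 p gave its values. Genes were the 21900 protein-coding genes of RefSeq on GRCm38.p6, the assembly of mm10. Pileup k and background b were solved from fold = (k + 1)/(b + 1) and the Poisson upper tail as whole-number k, within 0.001 of the deposited −log10 p. Percentiles are ranks by −log10 p in a list. Exact permutation tests used all 70 orders of the 8 libraries, adjusted by Benjamini-Hochberg over all regions with 8 values, and were tested on simulated data. Alternatives were equal-number lists, a −log10 q of at least 20, 50% cover, 10 kb, rank by fold, full-list percentiles, the replicate block and leaving out each library. Tools were Python 3.11.15, NumPy 2.4.6, SciPy 1.17.1, pandas 2.3.3 and matplotlib 3.10.9.

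The regions planned for naming were those at or nearest gene starts, those called in all 8 libraries and those separating a status. Other regions are also given by position. The genes and lists were chosen with earlier results of these data known, and the pileup comparison and the gene-body counts after seeing the data.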

Additional observations from a re-analysis of the deposited data

How the results depend on the processing

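By Ppara status, the 4 separated regions (3 Ppara-intact, 1 Ppara-null) became 1, at Asl and Ppara-null, in equal-number lists. In full lists the 3 were 5.88% of the 51, against 6.82% of all regions, and the 1 was 1.96%, against 0.0686%. The change of side thus rests on raw counts and on 1 region. A −log10 q minimum of 20 gave 5 (5 Ppara-intact, 0 Ppara-null), so the Ppara-null region was lost. At 50% cover there were 6 (5 Ppara-intact, 1 Ppara-null), and with a library left out 4 to 6. For Ppara knockout against wild type, the 7 regions (5 wild type, 2 knockout) became 6 in equal-number lists, 1 wild type and 5 knockout. Leaving out a library gave 9 to 18 (18 without Ppara knockout 1), since fewer libraries then have to be separated. Double knockout against wild type gave 11 to 21 so (21 without double knockout 1), and 10 (6 wild type, 4 double knockout) in equal-number lists. Double knockout against Cpt2 knockout gave 13 to 23 so (23 without double knockout 1), and 7 (4 and 3) in equal-number lists. The 1 region of Cpt2 knockout against wild type was 0 in equal-number lists, 0 with the −log10 q minimum, 2 at 50% cover and 2 to 4 with a library left out. The 2 of double knockout against Ppara knockout were 0 with the −log10 q minimum of 20, 4 at 50% cover and 4 to 12 with a library left out. By Cpt2 status 0 became 1 at most with a library left out. In this section no share over all regions is given for the −log10 q minimum, the 50% cover, the 10 kb limit or a left-out library.

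The 8 regions called in every library were 2 with the −log10 q minimum of 20, 4 at 50% cover, 5 within 10 kb and 8 to 10 with a library left out. The 16 regions called in Ppara-null libraries alone were 18 in equal-number lists (13% of all regions there, against 5.43% in full lists), 1 with the −log10 q minimum of 20 and 9 to 17 with a library left out (9 without double knockout 2). Separation by rank, 0 regions by Ppara status, was 2 by percentile in full lists, 5 by summit pileup and 0 to 1 with a library left out, and by Cpt2 status 0 to 3 with a library left out (3 without double knockout 1). With the replicate block, separation by rank gave 1 region by Ppara status (Asl at 130023818, exact permutation p = 0.0556 over 36 orders) and 1 by Cpt2 status, and counts of calls are the same by construction. Same-numbered libraries did not deviate together (correlations of −0.0263 to 0.0583 over 9073 regions), so the numbers are taken as names. The cause of these shifts was not tested.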
